A study of Mus musculus with 11 samples.

Results

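The plasma factors of coagulation, fibrinolysis and complement that hepatocytes make were measured in fetal mouse livers at E15.5, a day of embryonic development. They comprise 33 genes, 20 of coagulation and fibrinolysis and 13 of complement, of the 52636 genes counted in each of 11 livers, and were chosen by name as products of hepatocytes. Livers of 4 genotypes on a C57BL/6N background were sequenced without any treatment: WT (3 livers), Tnfr1 KO (2 livers), Casp8 Mlkl dKO (3 livers) and Casp8 Tnfr1 dKO (3 livers). The study counts the samples as fetal livers, and p-values measure the spread between them. *Tnfr1* encodes a receptor of TNF, *Casp8* encodes caspase-8, a protease that starts apoptosis and restrains necroptosis, and *Mlkl* encodes the protein that carries out necroptosis. Both double knockouts therefore lack caspase-8, and the Casp8 Tnfr1 dKO livers retain MLKL. The knockouts are not restricted to hepatocytes, and whole livers were sequenced, so fewer hepatocytes and less RNA per hepatocyte cannot be told apart. The design asks how the members differ between Casp8 Tnfr1 dKO livers and each other genotype, and whether complement and coagulation differ alike in each liver.

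Hepatocytes secrete most clotting and complement proteins of plasma as inactive precursors. In coagulation, a chain of serine proteases ends in thrombin, which turns fibrinogen into fibrin, and plasmin later dissolves the clot. In complement, the classical, lectin and alternative routes converge on C3, and the terminal proteins then assemble a pore in the target membrane. Fibrinogen, C3, C4 and factor B are also acute phase proteins, whose synthesis in the adult liver rises with inflammatory cytokines. The fetal liver is at the same time a site of blood formation, and much of the tissue is erythroid.

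Total counts were 23129212 to 35819339 per liver. Levels are given in CPM, which are reads per 1000000 reads of the library after TMM normalization in edgeR, and differences as log2 fold changes from edgeR's quasi-likelihood test over 17243 genes, with their standard error (SE). A gene was called where its p, adjusted after Benjamini-Hochberg over all genes tested, was under 0.05, and all 33 members passed the filter on low counts. *Mlkl* measured 0.730 to 1.22 CPM in Casp8 Mlkl dKO livers and 3.68 to 4.46 CPM in WT and Tnfr1 KO livers. In Casp8 Tnfr1 dKO livers it measured 14.7, 13.3 and 24.6 CPM. *Casp8* measured 7.82 to 21.9 CPM in the 6 livers labelled as lacking it and 27.7 to 33.9 CPM in the other 5. *Tnfrsf1a*, the gene of TNFR1, measured 49.8 and 50.5 CPM in Tnfr1 KO and 47.1 to 53.4 CPM in WT livers. In Casp8 Tnfr1 dKO livers, also labelled as lacking it, it measured 76.9, 76.0 and 425 CPM. In Casp8 Mlkl dKO livers it measured 77.2, 52.5 and 45.4 CPM. Casp8 Tnfr1 dKO replicate 3, at 425 CPM, also held the 21.9 CPM of *Casp8*. Counts over the whole gene thus did not check the loss of TNFR1 in either genotype.

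A pair of libraries stood apart, and members' calls are given below with all 11 livers and with the other 9. These 9 were chosen after the values of the libraries were seen. Across genes, log2 CPM of Casp8 Tnfr1 dKO replicate 3 correlated with the other livers at r = 0.840 to 0.891, and that of Casp8 Mlkl dKO replicate 1 with the remaining 9 at r = 0.949 to 0.962. The summed level of 20 hepatocyte reference genes, such as *Alb* and *Afp*, none of them a member, was 238281 CPM in Casp8 Mlkl dKO replicate 1, 107826 CPM in Casp8 Tnfr1 dKO replicate 3 and 57636 to 85343 CPM in the other 9 livers. All 20 were detected in these livers. Casp8 Tnfr1 dKO replicate 3 held 1740.2 CPM of 12 striated muscle markers, against 15.7 to 39.8 CPM in the other livers, and 5823 CPM of 10 stromal markers, against 1167 to 1591 CPM. The common coefficient of biological variation was 33.3% with all 11 livers and 8.27% with the 9, and the part of muscle and stromal RNA in the members' values was not tested.

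With all 11 livers few members were called. Against WT, 1 of 33 members was higher in Casp8 Tnfr1 dKO livers (*Pros1*) and none lower, where 5.10% of all genes tested were called higher and 0.702% lower. DESeq2's Wald test called 4 members higher and 1 lower (10.3% and 3.42% of all genes), and limma-voom called 2 higher and none lower (4.07% and 0.609%). Against Tnfr1 KO edgeR called no member (2.05% of all genes higher, 0.122% lower), 5 having an unadjusted p under 0.05. DESeq2 called 1 higher and 1 lower (6.42% and 0.940% of all genes) and limma-voom none (2.13% and 0.145%). Against Casp8 Mlkl dKO, 1 member was lower (*C6*) and none higher (1.54% of all genes higher, 0.116% lower).

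Over the 9 livers, 20 of 33 members were called against WT, 13 higher and 7 lower, where 17.8% of all genes were called higher and 13.5% lower. Against Tnfr1 KO 10 were higher and 13 lower (13.9% and 9.30% of all genes), and against Casp8 Mlkl dKO 15 were higher and 1 lower (12% and 6.10% of all genes). In this fit the share of members called exceeded that of all genes in both directions against WT and Tnfr1 KO. With all livers it did not, as 1 member was called against WT and none against Tnfr1 KO. The genes compared were not matched to the members by level, so whether members exceed genes of similar level was not tested. The 9 livers were chosen after the library values were seen, and the members with earlier results of these data known. Casp8 Mlkl dKO replicate 1, left out here, had the highest sum of hepatocyte genes and also of the members (46111 CPM). The larger share of members in the 9-liver fit is therefore a description and not a test. Over the 9 livers, 10 members were higher in each of the 3 comparisons. They were *F7*, *Pros1*, *Kng1*, *Fga*, *Fgb*, *Fgg*, *C1ra*, *C4b*, *Serping1* and *Cfb*. *C6* was lower in each comparison. These comparisons share the same Casp8 Tnfr1 dKO livers.

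**Figure D1:**
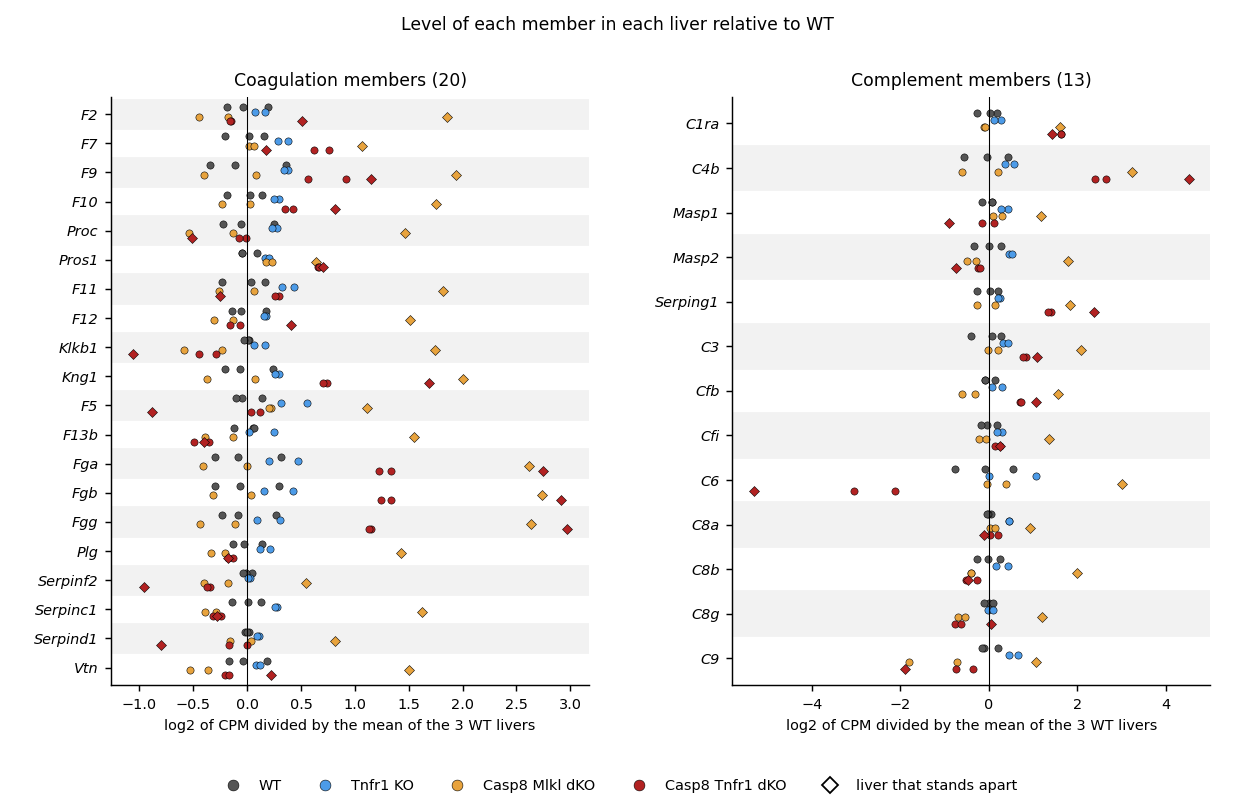
Level of each member in each of the 11 livers, as log2 of CPM divided by the mean CPM of the 3 WT livers (x axis), with 1 row per gene and colors for genotypes; diamonds mark Casp8 Mlkl dKO replicate 1 and Casp8 Tnfr1 dKO replicate 3. The Casp8 Mlkl dKO diamond lies to the right of the WT mean for all 33 members, whereas Casp8 Tnfr1 dKO livers lie to the right for *Fga*, *Fgb*, *Fgg*, *C4b* and *Serping1* and to the left for *C6*.

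Of the coagulation members, the 3 genes of fibrinogen had the largest differences from WT. *Fga*, *Fgb* and *Fgg* encode its alpha, beta and gamma chains and lie together on chromosome 3 (GRCm38; chr3:83026076-83033627, chr3:83040141-83049863 and chr3:83007724-83015049), with 6513 bases between *Fga* and *Fgb* and 11026 between *Fgg* and *Fga*. *Fga* measured 1622, 1236 and 1066 CPM in WT livers, 1810.5 and 1504 in Tnfr1 KO livers, 8047, 982 and 1307 in Casp8 Mlkl dKO livers, and 3293, 3055 and 8772 in Casp8 Tnfr1 dKO livers. *Fgb* measured 1243, 968 and 821 CPM in WT, 1354 and 1128 in Tnfr1 KO, 6749, 811 and 1036 in Casp8 Mlkl dKO and 2544, 2393 and 7631 in Casp8 Tnfr1 dKO livers. *Fgg* measured 1038, 816 and 735 CPM in WT, 1065 and 919 in Tnfr1 KO, 5376, 638 and 800.1 in Casp8 Mlkl dKO and 1919.9, 1890.4 and 6773 in Casp8 Tnfr1 dKO livers. For each chain the Casp8 Tnfr1 dKO livers lay above all others except Casp8 Mlkl dKO replicate 1, which lay between Casp8 Tnfr1 dKO replicate 3 and the other two.

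With all 11 livers the log2 fold change against WT was 1.95 ± 0.75 (SE) for *Fga*, 2.05 ± 0.78 for *Fgb* and 2.03 ± 0.81 for *Fgg*, and none was called (edgeR adjusted p = 0.152, 0.147 and 0.159). In the 9-liver fit it was 1.29 ± 0.15, 1.30 ± 0.14 and 1.16 ± 0.13, and the 3 genes rose (edgeR adjusted p = 1.69e-05, 9.64e-06 and 9.00e-06). In that fit *Fga* also rose by 0.95 ± 0.17 against Tnfr1 KO and by 1.48 ± 0.17 against Casp8 Mlkl dKO. The unadjusted p of an exact permutation test on log2 CPM (two-sided, 3 livers against 8) was 0.0424 for *Fga*, 0.0485 for *Fgb* and 0.0545 for *Fgg*, where 0.00606 is the smallest p possible.

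Because the 3 chains moved together, the bases before their RefSeq start sites are shown (GRCm38.p6), 5′ to 3′ on the strand of each gene. *Fga* is shown from chr3:83025903-83026075 (plus strand), which covers 250 to 78 bases before its RefSeq start because GENCODE places the gene's start 77 bases upstream of it, and distances are counted from the RefSeq start. For the others the 180 bases next to the start are shown, *Fgb* from chr3:83049864-83050043 (minus strand) and *Fgg* from chr3:83007544-83007723 (plus strand). In *Fga* the capitals mark a match to the STAT motif TTCCNGGAA, 234 bases before the start, and to the C/EBP motif TTGCNNAA, 135 bases before it. In *Fgb* they mark the GAS core TTCNNNGAA, 162 bases before the start, and TTGCNNAA, 80 bases before it. *Fgg* matched none of the motifs searched.
Fga: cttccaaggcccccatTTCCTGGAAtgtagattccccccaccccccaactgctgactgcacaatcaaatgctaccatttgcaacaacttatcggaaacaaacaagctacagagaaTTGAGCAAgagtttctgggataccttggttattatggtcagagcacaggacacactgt
Fgb: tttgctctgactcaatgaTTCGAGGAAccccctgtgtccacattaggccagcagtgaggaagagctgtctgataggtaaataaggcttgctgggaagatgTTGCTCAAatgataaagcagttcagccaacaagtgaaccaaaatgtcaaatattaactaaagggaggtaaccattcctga
Fgg: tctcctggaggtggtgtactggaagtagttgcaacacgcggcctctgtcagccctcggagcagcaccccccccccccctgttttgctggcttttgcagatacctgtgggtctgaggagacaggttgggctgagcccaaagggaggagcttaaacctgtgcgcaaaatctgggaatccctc

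Both strands were searched in the 26 promoter entries found for 25 of the members, each 250 bases before and 50 bases after a start. TTCCNGGAA was found in *Fga* and *Pros1* and in 1.15% of all 32851 promoters. TTCNNNGAA, which matches wherever TTCCNGGAA does, was found in 8 members (*F9*, *Pros1*, *Fga*, *Fgb*, *Vtn*, *C1ra*, *Masp2* and *C8a*) and in 8.3% of all promoters. TTGCNNAA was found in 9 members and 10.8% of all promoters, and the stricter TTGCGNAA in *C3* and *Serpinc1* and 0.798%. The members with these letters include genes that were higher, lower and not called. The ISRE core GAAANNGAA was found in *Vtn* (8.56% of all). The NF-kB motifs GGGACTTTC, GGAAATTCC and GGGATTTCC (0.353%, 0.317% and 0.323% of all) and the HNF4 motif CAAAGTCCA (0.475%) matched no member in this window.

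Of the 6 vitamin K-dependent members, which need gamma-carboxylation to bind membranes, 4 were called higher against WT with the 9 livers and none lower. *Pros1* encodes protein S, the anticoagulant cofactor of activated protein C (chr16:62854307-62929346). It measured 24, 24 and 26.5 CPM in WT livers, 27.8 and 28.5 in Tnfr1 KO livers, 38.6, 28.1 and 29.1 in Casp8 Mlkl dKO livers, and 39.1, 39.4 and 40.5 in Casp8 Tnfr1 dKO livers. It was the only member (3.03% of members) whose Casp8 Tnfr1 dKO livers lay above all 8 others in CPM, as did 7.43% of all genes tested. For *Pros1* the unadjusted exact permutation p was 0.00606, the smallest possible, which the lack of overlap largely fixes. Its log2 fold change was 0.68 ± 0.14 against WT (edgeR adjusted p = 0.0260), 0.49 ± 0.16 against Tnfr1 KO and 0.31 ± 0.14 against Casp8 Mlkl dKO (edgeR adjusted p = 0.177 and 0.337).

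The call of *Pros1* against WT was lost without WT replicate 1, 2 or 3 (edgeR adjusted p = 0.113, 0.120 and 0.0853) and without either Tnfr1 KO liver (0.0668 and 0.0662), with log2 fold changes of 0.66 to 0.73 over the 11 livers left out in turn. With the 9 livers it was 0.68 ± 0.08 (edgeR adjusted p = 1.47e-05). The 180 bases before its start (RefSeq, GRCm38.p6, chr16:62854127-62854306, plus strand) are shown because *Pros1* shares the STAT motif with *Fga*, and the capitals mark the match to TTCCNGGAA, 92 bases before the start.
Pros1: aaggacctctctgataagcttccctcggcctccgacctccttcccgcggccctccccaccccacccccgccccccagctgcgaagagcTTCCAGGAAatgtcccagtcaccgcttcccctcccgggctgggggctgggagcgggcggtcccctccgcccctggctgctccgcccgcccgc

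The procoagulant proteases *F7*, *F9* and *F10* differed by less than 1 on the log2 scale. *F9*, the gene of factor IX, measured 10.4 to 17.1 CPM in the 5 WT and Tnfr1 KO livers, 50.4, 10 and 13.9 in Casp8 Mlkl dKO livers, and 24.9, 19.5 and 29.3 in Casp8 Tnfr1 dKO livers. *F10*, the gene of factor X, which activates prothrombin together with factor V, measured 111 to 155 CPM in the WT and Tnfr1 KO livers, 426, 107 and 128 in Casp8 Mlkl dKO livers, and 161, 169 and 222 in Casp8 Tnfr1 dKO livers. Both lay above the 5 WT and Tnfr1 KO livers and below Casp8 Mlkl dKO replicate 1. *F7*, the gene of the protease that tissue factor engages, lies 1498 bases from *F10* on chromosome 8 and measured 10.8 to 16.2 CPM in the WT and Tnfr1 KO livers, 26.0, 12.6 and 13 in Casp8 Mlkl dKO livers, and 19.1, 21 and 14.0 in Casp8 Tnfr1 dKO livers. Over the 9 livers the log2 fold changes against WT were 0.70 ± 0.11 for *F7*, 0.77 ± 0.18 for *F9* and 0.40 ± 0.09 for *F10* (edgeR adjusted p = 3.11e-04, 0.00495 and 0.00386).

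*F2*, the gene of prothrombin, measured 512, 508 and 809.9 CPM in Casp8 Tnfr1 dKO livers and 498 to 650.1 CPM in WT and Tnfr1 KO livers, and was not called in the 3 comparisons. *Proc*, the gene of protein C, measured 144, 138 and 102 CPM against 124 to 176 CPM and was not called either. Both overlapped the other livers. With all 11 livers, none of the 4 genes of the vitamin K cycle (*Ggcx*, *Vkorc1*, *Vkorc1l1* and *Calu*) was called in the 3 comparisons by edgeR, none had an unadjusted p under 0.05 against WT, and their median log2 fold change against WT was -0.02 (0.00 over all genes). *Vkorc1l1* and *Ggcx*, with the smallest p, had -0.25 ± 0.13 and -0.09 ± 0.22. *Calu* was higher against WT with the 9 livers, *Vkorc1* higher against Casp8 Mlkl dKO, and none against Tnfr1 KO.

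The 4 members of the contact and kinin system went in different directions. *Kng1* encodes kininogen, the source of bradykinin, and measured 483 to 685 CPM in the WT and Tnfr1 KO livers, 2243, 431 and 586 in Casp8 Mlkl dKO livers, and 932, 909 and 1802 in Casp8 Tnfr1 dKO livers. *Klkb1* encodes plasma prekallikrein, whose active form cleaves kininogen, and measured 42.0 to 48.1 CPM in the WT and Tnfr1 KO livers, 143, 28.4 and 36.3 in Casp8 Mlkl dKO livers, and 31.4, 34.9 and 20.5 in Casp8 Tnfr1 dKO livers. Against the WT and Tnfr1 KO livers, *Kng1* was higher and *Klkb1* lower in all 3 Casp8 Tnfr1 dKO livers. In the 9-liver fit, *Kng1* rose against WT by 0.74 ± 0.12 and *Klkb1* fell by 0.35 on the log2 scale (SE 0.10), with edgeR adjusted p = 4.20e-04 and 0.0131. *F11* and *F12*, the genes of factors XI and XII, were not called against WT (0.29 ± 0.11 and -0.10 ± 0.09). *F11*, 4657 bases from *Klkb1*, measured 73.8, 71.8 and 50.3 CPM in Casp8 Tnfr1 dKO livers, 212, 50.0 and 62.6 in Casp8 Mlkl dKO livers and 51.1 to 81.3 CPM in WT and Tnfr1 KO livers, which overlapped.

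*F13b* encodes the carrier subunit of the fibrin-crosslinking factor XIII. It measured 48.7, 44.2 and 47.3 CPM in Casp8 Tnfr1 dKO livers, 183, 47.5 and 57.1 in Casp8 Mlkl dKO livers and 57.5 to 74.2 CPM in the WT and Tnfr1 KO livers. The Casp8 Tnfr1 dKO livers thus lay below the WT and Tnfr1 KO livers and overlapped the Casp8 Mlkl dKO livers. *F13b* was not called with all 11 livers. With the 9 livers *F13b* fell by 0.41 on the log2 scale against WT (SE 0.10, edgeR adjusted p = 0.00516). *F5*, the gene of the cofactor factor V, measured 183, 173 and 91.6 CPM in Casp8 Tnfr1 dKO livers, 366, 197 and 195 in Casp8 Mlkl dKO livers and 157 to 249 CPM in WT and Tnfr1 KO livers. *F5* differed by -0.18 ± 0.30 from WT and by -0.62 ± 0.33 from Tnfr1 KO on the log2 scale with all 11 livers (edgeR adjusted p = 0.715 and 0.392). With the 9 it was 0.09 ± 0.08 against WT, and *F5* fell by 0.35 against Tnfr1 KO (SE 0.09, edgeR adjusted p = 0.466 and 0.0120).

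The 5 members of fibrinolysis and the inhibitors had log2 fold changes below 0 against WT and Tnfr1 KO, with all 11 and with the 9 livers. Against Casp8 Mlkl dKO 3 of the 5 were above 0 with the 9 livers, and none was called. In that fit 3 of the 5 were also called lower in Casp8 Mlkl dKO against WT (3.18% of all genes). *Serpinf2*, the gene of alpha2-antiplasmin, was the most abundant coagulation member per length in WT livers, at 595 CPM per kb, followed by *Vtn* (507) and *Fga* (434). *Serpinf2* measured 1368, 1312 and 1291 CPM in WT livers, 1344 and 1331 in Tnfr1 KO livers, 1936, 1005 and 1174 in Casp8 Mlkl dKO livers, and 1039, 1024 and 681 in Casp8 Tnfr1 dKO livers. Its Casp8 Tnfr1 dKO livers lay below all WT and Tnfr1 KO livers and overlapped the Casp8 Mlkl dKO livers. The log2 fold change against WT was -0.53 ± 0.26 with all livers and -0.34 ± 0.08 with the 9 (edgeR adjusted p = 0.238 and 0.00333).

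*Serpinc1*, the gene of antithrombin, measured 435, 412 and 422 CPM in Casp8 Tnfr1 dKO livers, 1582, 392 and 421 in Casp8 Mlkl dKO livers and 465 to 621 CPM in WT and Tnfr1 KO livers. Over the 9 livers it fell by 0.26 on the log2 scale against WT (SE 0.08, edgeR adjusted p = 0.0211). *Plg*, the gene of plasminogen, measured 885, 858 and 857 CPM in Casp8 Tnfr1 dKO livers, 2601, 767 and 841 in Casp8 Mlkl dKO livers and 886 to 1123 CPM in WT and Tnfr1 KO livers. In the 9-liver fit it was called only against Tnfr1 KO (-0.30 ± 0.09, edgeR adjusted p = 0.0272). *Serpind1* (heparin cofactor II) and *Vtn* were not called in the 3 comparisons. *Vtn* encodes vitronectin, which stabilizes the inhibitor PAI-1 and also blocks the terminal complement complex, and measured 1003, 862 and 786 CPM in WT, 933 and 962 in Tnfr1 KO, 2497, 611 and 687 in Casp8 Mlkl dKO and 764, 784 and 1029 in Casp8 Tnfr1 dKO livers, which overlapped.

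**Figure D2:**
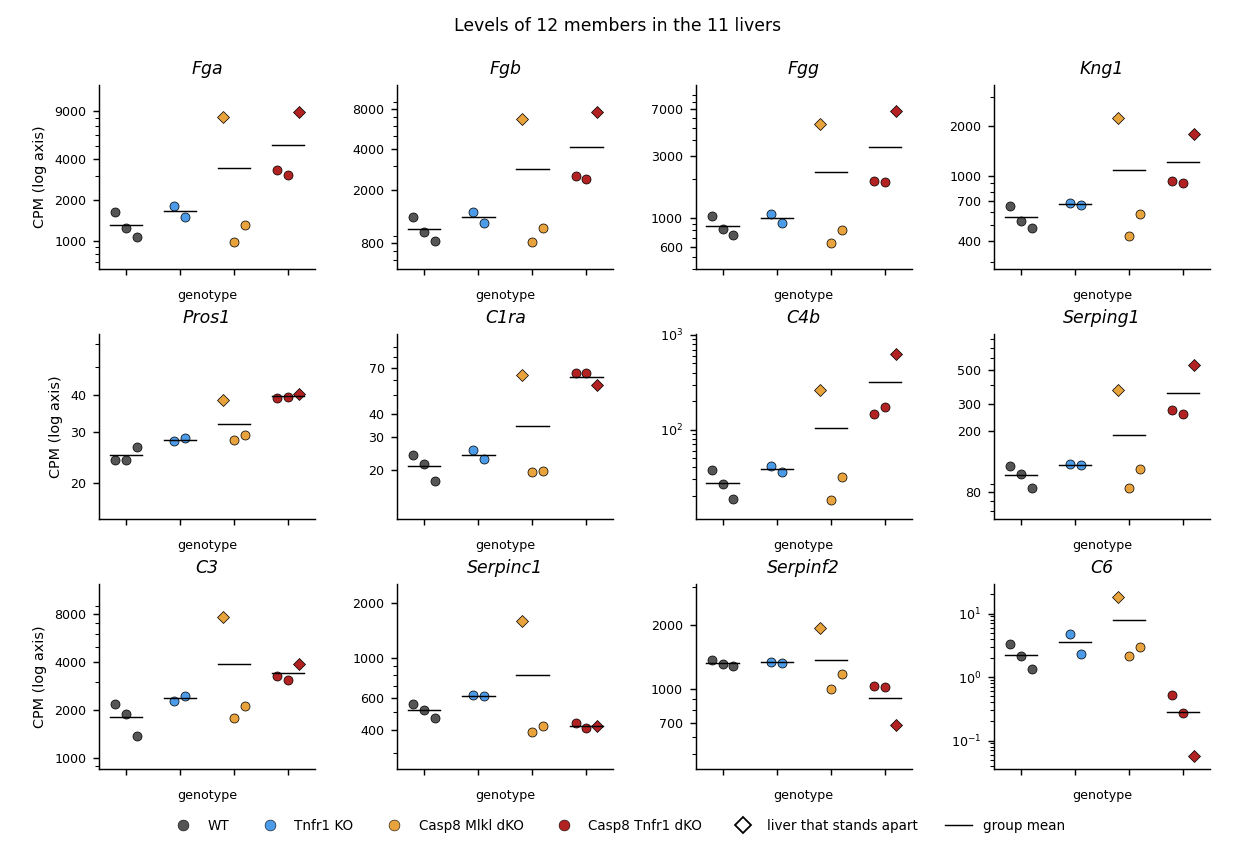
CPM on a log axis of 12 members in the 11 livers, with 1 panel per gene, 1 column of points per genotype and lines for group means; diamonds mark the livers that stand apart. The 3 Casp8 Tnfr1 dKO livers sit above all others in *Pros1* (39.1 to 40.5 CPM) and below all others in *C6* (0.0570 to 0.519 CPM). Of all genes tested, 7.43% lie above and 3.32% below in this way.

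Among the complement members that initiate the cascade, 3 rose with the 9 livers and the 2 proteases of the lectin route did not. C1r is a protease of the C1 complex, which cleaves C4, and C1 inhibitor (*Serping1*) blocks it as well as factor XII and kallikrein. *C4b* (chr17:34728380-34743882), the gene of C4, measured 37.6, 26.9 and 18.7 CPM in WT livers, 41.1 and 35.6 in Tnfr1 KO livers, 263, 18.2 and 31.9 in Casp8 Mlkl dKO livers, and 147, 174 and 636 in Casp8 Tnfr1 dKO livers. Against WT *C4b* had a log2 fold change of 3.52 ± 0.99 with all livers and was not called (edgeR adjusted p = 0.0679). In the 9-liver fit it was 2.54 ± 0.22 (edgeR adjusted p = 9.64e-07), the largest rise of any member in that fit, and *C4b* rose by 2.08 ± 0.25 against Tnfr1 KO and 2.70 ± 0.26 against Casp8 Mlkl dKO.

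*C1ra* measured 24.2, 21.7 and 17.6 CPM in WT livers, 25.5 and 22.9 in Tnfr1 KO livers, 64.3, 19.6 and 19.8 in Casp8 Mlkl dKO livers, and 65.9, 65.5 and 56.6 in Casp8 Tnfr1 dKO livers. *Serping1* measured 118, 104 and 84.7 CPM in WT, 121 and 119 in Tnfr1 KO, 368, 84.8 and 112 in Casp8 Mlkl dKO and 272, 258 and 535 in Casp8 Tnfr1 dKO livers. In *C4b*, *C1ra* and *Serping1* the Casp8 Tnfr1 dKO livers lay above every liver but Casp8 Mlkl dKO replicate 1 (unadjusted exact permutation p = 0.0182, 0.0121 and 0.0182). The log2 fold change of *C1ra* against WT was 1.57 ± 0.41 with all livers and 1.65 ± 0.11 with the 9 (edgeR adjusted p = 0.0556 and 3.71e-08), and that of *Serping1* was 1.79 ± 0.51 and 1.39 ± 0.12 (0.0721 and 9.04e-07).

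In *Masp1* and *Masp2*, the genes of the lectin route proteases, the Casp8 Tnfr1 dKO livers overlapped the WT livers. They lay below both Tnfr1 KO livers, which had 62.8 and 56.3 CPM of *Masp1* and 61.3 and 63.8 CPM of *Masp2*. *Masp1* measured 49.8, 41.6 and 24.7 CPM in Casp8 Tnfr1 dKO livers, 105, 57.0 and 49.6 in Casp8 Mlkl dKO livers and 41.4 to 62.8 CPM in WT and Tnfr1 KO livers. *Masp2* measured 37.5, 39.1 and 26.6 CPM in Casp8 Tnfr1 dKO livers, 154, 31.8 and 36.3 in Casp8 Mlkl dKO livers and 35.2 to 63.8 CPM in WT and Tnfr1 KO livers. With the 9 livers neither was called against WT (0.00 ± 0.10 and -0.20 ± 0.13), and both fell against Tnfr1 KO (-0.37 ± 0.11 and -0.69 ± 0.14, edgeR adjusted p = 0.0244 and 0.00234).

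*C3* encodes the central component of complement and was its most abundant member per length in WT livers (355 CPM per kb), followed by *Cfi* (146) and *Serping1* (50.9). *C3* measured 2191, 1905 and 1370.4 CPM in WT livers, 2275 and 2458 in Tnfr1 KO livers, 7706, 1798 and 2114 in Casp8 Mlkl dKO livers, and 3282, 3093 and 3874 in Casp8 Tnfr1 dKO livers. *Cfb*, the gene of factor B, the protease of the alternative route, lies 112491 bases from *C4b* on chromosome 17 and measured 15.3 to 19.9 CPM in WT and Tnfr1 KO livers, 48.2, 10.7 and 13.1 in Casp8 Mlkl dKO livers, and 26.3, 26.7 and 33.7 in Casp8 Tnfr1 dKO livers. Both lay above every WT and Tnfr1 KO liver and below Casp8 Mlkl dKO replicate 1. Over the 9 livers *C3* rose against WT by 0.82 ± 0.14 and *Cfb* by 0.73 ± 0.11 (edgeR adjusted p = 5.23e-04 and 2.41e-04). Against Tnfr1 KO *Cfb* rose by 0.54 ± 0.13 (edgeR adjusted p = 0.00623), and *C3*, at 0.45 ± 0.16, was not called (edgeR adjusted p = 0.0581).

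*Cfi*, the gene of factor I, which inactivates C3b and C4b, measured 345, 297 and 271 CPM in WT livers, 373 and 348 in Tnfr1 KO livers, 786, 261 and 293 in Casp8 Mlkl dKO livers, and 361, 337 and 364 in Casp8 Tnfr1 dKO livers. The groups overlapped, and *Cfi* was not called against WT (0.21 ± 0.09 with the 9 livers, edgeR adjusted p = 0.0952). The 180 bases before the start of *C3* (RefSeq, GRCm38.p6, chr17:57228137-57228316, minus strand) are shown as the promoter of the most abundant complement member, with the match to TTGCGNAA, 45 bases before the start, in capitals.
C3: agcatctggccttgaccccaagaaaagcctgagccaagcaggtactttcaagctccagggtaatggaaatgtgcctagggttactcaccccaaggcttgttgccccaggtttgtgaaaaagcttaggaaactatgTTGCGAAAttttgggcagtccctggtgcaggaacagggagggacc

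The 5 members of the terminal pathway were all called lower against Tnfr1 KO with the 9 livers, and *C6*, *C8b* and *C8g* against WT. In that fit 9.30% of all genes were lower against Tnfr1 KO and 13.5% against WT. Against Casp8 Mlkl dKO only *C6* was called lower, and 3 of the 5 had log2 fold changes above 0 (median 0.03). In Tnfr1 KO against WT all 5 were above 0 (median 0.45), and *C8a* was called higher. *C6* encodes a component of the pore (chr15:4727175-4814967) and was the least abundant member, with 86, 51 and 34 reads in WT livers and 17, 8 and 1 reads in Casp8 Tnfr1 dKO livers. It measured 3.30, 2.14 and 1.34 CPM in WT livers, 4.76 and 2.28 in Tnfr1 KO livers, 18.3, 2.18 and 2.98 in Casp8 Mlkl dKO livers, and 0.519, 0.275 and 0.0570 in Casp8 Tnfr1 dKO livers. It was the only member (3.03% of members) below all 8 other livers in CPM, as were 3.32% of all genes tested. For *C6* the unadjusted exact permutation p was 0.00606, the smallest possible, which the lack of overlap largely fixes.

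The log2 fold change of *C6* was -4.66 ± 0.97 against Casp8 Mlkl dKO (edgeR adjusted p = 0.0461), -2.87 ± 0.93 against WT and -3.52 ± 0.99 against Tnfr1 KO (edgeR adjusted p = 0.101 and 0.115). Without Casp8 Mlkl dKO replicate 1 the first was -3.06 and still called (edgeR adjusted p = 0.0436), and without any other single liver the call was lost, with adjusted p of 0.0607 to 0.0959. In the 9-liver fit *C6* fell in each comparison, with log2 fold changes of -2.46 ± 0.49 against WT, -3.12 ± 0.49 against Tnfr1 KO and -2.64 ± 0.50 against Casp8 Mlkl dKO (edgeR adjusted p = 0.00142, 3.41e-04 and 0.00199).

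The other terminal components differed less. *C9*, which forms the ring of the pore, measured 7.02, 5.37 and 2.39 CPM in Casp8 Tnfr1 dKO livers, 18.7, 5.43 and 2.56 in Casp8 Mlkl dKO livers and 8.09 to 14.1 CPM in WT and Tnfr1 KO livers. *C8a*, *C8b* and *C8g* encode the 3 chains of C8. *C8b* measured 71.5, 60.1 and 62.1 CPM in Casp8 Tnfr1 dKO livers, 344, 65.2 and 64.7 in Casp8 Mlkl dKO livers and 72.1 to 116 CPM in WT and Tnfr1 KO livers. Its neighbor *C8a*, 11130 bases away on chromosome 4, measured 66.2, 58.2 and 53.0 CPM in Casp8 Tnfr1 dKO livers, 109, 58.5 and 62.9 in Casp8 Mlkl dKO livers and 56.1 to 78.4 CPM in WT and Tnfr1 KO livers. *C8g* measured 14.4, 15.8 and 25.2 CPM in Casp8 Tnfr1 dKO livers, 56.0, 15 and 16.8 in Casp8 Mlkl dKO livers and 22.6 to 26.1 CPM in WT and Tnfr1 KO livers. The Casp8 Tnfr1 dKO livers lay below all WT and Tnfr1 KO livers in *C9* and *C8b* and overlapped them in *C8a* and *C8g*. With the 9 livers *C8g* fell against WT by 0.68 on the log2 scale (SE 0.10, edgeR adjusted p = 1.66e-04) and *C8b* by 0.37 (SE 0.12, 0.0334).

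**Figure D3:**
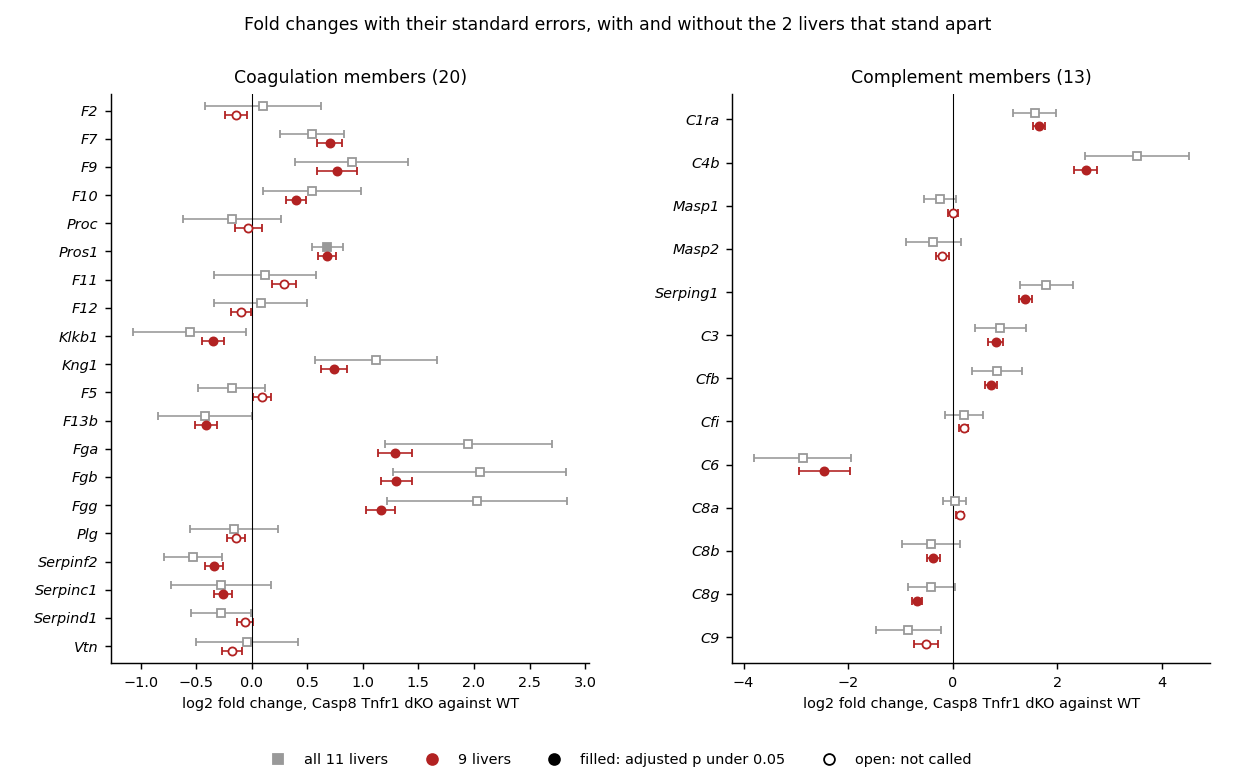
Log2 fold change of each member in Casp8 Tnfr1 dKO against WT livers (x axis, with bars for SE), with all 11 livers (gray squares) and with 9 livers (red circles); filled symbols have an edgeR adjusted p under 0.05. Over the 9 livers 13 members are called higher and 7 lower, and with all 11 only *Pros1* is called.

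Against the 5 WT and Tnfr1 KO livers alone, a comparison chosen after the values were seen, 12 members lay higher in all 3 Casp8 Tnfr1 dKO livers, 7 of coagulation and 5 of complement, which is 36.4% of members against 15.7% of all genes tested. Those that lay lower numbered 8, 5 of coagulation and 3 of complement, which is 24.2% against 12.4%. The lower ones were *Klkb1*, *F13b*, *Plg*, *Serpinf2*, *Serpinc1*, *C6*, *C8b* and *C9*.

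As classes, complement and coagulation overlapped between genotypes. The mean log2 CPM of the 13 complement members minus that of the 20 coagulation members was -2.16, -2.20 and -2.34 in WT livers, -2.07 and -2.15 in Tnfr1 KO livers, -2.08, -2.21 and -2.34 in Casp8 Mlkl dKO livers, and -2.19, -2.28 and -2.48 in Casp8 Tnfr1 dKO livers. The means were -2.23 ± 0.10 (SD, n = 3) in WT and -2.32 ± 0.15 (SD, n = 3) in Casp8 Tnfr1 dKO livers. *Vtn* and *Serping1* act in both systems, and *C4b*, *C1ra* and *Kng1* share sequence with close relatives (*Cfb* and *Klkb1*, which also share sequence, were kept). Of those left out, *C4b*, *C1ra* and *Serping1* are 3 of the 5 complement members called higher against WT with the 9 livers. Without these 5 members the difference was -1.92, -1.95 and -2.07 in WT, -1.80 and -1.89 in Tnfr1 KO, -1.96, -1.97 and -2.18 in Casp8 Mlkl dKO and -2.39, -2.53 and -2.95 in Casp8 Tnfr1 dKO livers, the last below all 8 others. The lower values follow in part from leaving out complement members that rose, so this separation is not a result about the classes.

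The median log2 fold change against WT was 0.09 for coagulation and 0.04 for complement members, where all genes had 0.00. It was -0.12 and -0.41 against Tnfr1 KO and -0.57 and -0.38 against Casp8 Mlkl dKO (all genes -0.01 and -0.03). In the 9-liver fit the medians were 0.03 and 0.13 against WT and 0.28 and 0.35 against Casp8 Mlkl dKO, the latter with the opposite sign to that with all livers. In that fit, 8 coagulation members were higher and 4 lower against WT, and 5 complement members were higher and 3 lower.

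Some roles differed more between WT and Casp8 Tnfr1 dKO livers than the classes did, though a mean over fewer genes also varies more. The mean log2 CPM of the 3 fibrinogen genes was 10.01 ± 0.29 (SD, n = 3) in WT livers and 11.30, 11.23 and 12.91 in Casp8 Tnfr1 dKO livers. That of the 5 initiation members was 5.36 ± 0.28 (SD, n = 3) in WT and 6.53 ± 0.16 (SD, n = 3) in Casp8 Tnfr1 dKO livers. That of the 5 terminal members was 4.23 ± 0.23 (SD, n = 3) in WT and 3.63, 3.34 and 2.94 in Casp8 Tnfr1 dKO livers, below the 3.82 to 5.89 of all 8 other livers. That separation rested on *C6*, whose reads are few: without it, a mean added after seeing the values, the terminal members had 4.72, 4.55 and 4.41 in Casp8 Tnfr1 dKO livers, below the 4.88 to 5.39 of WT and Tnfr1 KO livers and overlapping the 4.37 to 6.31 of Casp8 Mlkl dKO livers. *F5* and *F13b* together had 6.56, 6.45 and 6.04, below the 6.60 to 8.02 of the others. The vitamin K-dependent members had 6.28, 6.25 and 6.36 in Casp8 Tnfr1 dKO livers and 5.65 to 7.34 in the others. The contact and kinin members had 6.98, 7.02 and 7.07 and 6.49 to 8.64. The contact and kinin members overlapped the WT and Tnfr1 KO livers. For the vitamin K-dependent members, the Casp8 Tnfr1 dKO livers lay above every liver but Casp8 Mlkl dKO replicate 1. The same held for the central and alternative pathway, for fibrinogen and for the initiation members. That replicate had 12.70 for fibrinogen and 7.31 for initiation. Fibrinolysis and inhibitors had 9.38, 9.33 and 9.17 in Casp8 Tnfr1 dKO livers, below the 9.47 to 9.71 of WT and Tnfr1 KO livers. They overlapped the 9.21 to 10.75 of Casp8 Mlkl dKO livers.

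**Figure D4:**
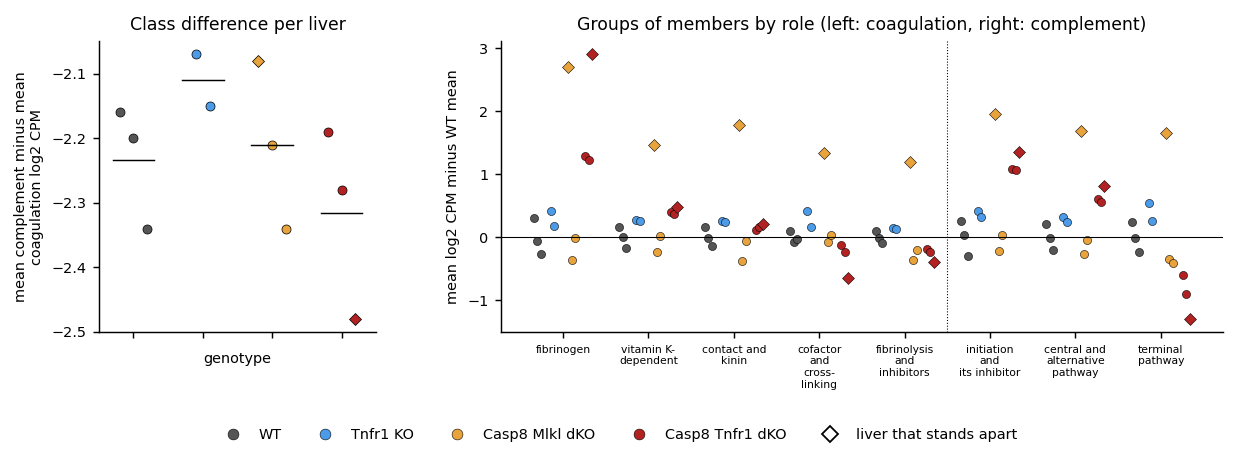
Left, mean complement minus mean coagulation log2 CPM in each liver, with lines for group means. Right, mean log2 CPM of the members of each role in each liver minus the mean of the WT livers; colors give genotypes and diamonds the livers that stand apart. The genotypes overlap at left, while at right the Casp8 Tnfr1 dKO livers are above WT for fibrinogen and below all 8 other livers for the terminal pathway, where they overlap the Casp8 Mlkl dKO livers once *C6* is left out.

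As the summed level of hepatocyte genes differed between livers, members were also set against the summed reads of 19 hepatocyte reference genes, the 20 above without *Fgl1*, a gene of the acute phase. *Alb* and *Afp* made up 74.6% to 77.9% of these reads. The 33 members summed to 170.2, 166 and 154 reads per 1000 reference reads in WT livers, 167 and 172 in Tnfr1 KO livers, 194, 166 and 167 in Casp8 Mlkl dKO livers, and 286, 280.4 and 330.5 in Casp8 Tnfr1 dKO livers. Casp8 Mlkl dKO replicate 1, the highest of all in CPM, was thus closer to the controls on this scale, and the Casp8 Tnfr1 dKO livers lay above the 8 others. The coagulation members summed to 123 to 151 in the 8 other livers and 216, 212 and 277 in Casp8 Tnfr1 dKO livers, and the complement members to 30.4 to 42.6 and 69.8, 67.9 and 53.0. Of the coagulation members, the 3 fibrinogen genes summed to 39.5 to 84.7 in the 8 other livers and 123, 119 and 216 in Casp8 Tnfr1 dKO livers. The other 17, a sum added after seeing the values, had 66.8 to 84.7 and 92.7, 93.0 and 61.8, so that Casp8 Tnfr1 dKO replicates 1 and 2 were above and replicate 3 below the 8 others.

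Relative to the reference genes, 11 members (33.3%) lay above all 8 other livers in each Casp8 Tnfr1 dKO liver, against 10.3% of all genes tested, and 1 (*C6*) lay below, against 0.360%. The 11 were *F9*, *F10*, *Kng1*, *Fga*, *Fgb*, *Fgg*, *C1ra*, *C4b*, *Serping1*, *C3* and *Cfb*. *Fga* measured 16.1 to 21.2 reads per 1000 reference reads in WT and Tnfr1 KO livers, 33.8, 17.0 and 19.1 in Casp8 Mlkl dKO livers, and 52.2, 49.7 and 81.6 in Casp8 Tnfr1 dKO livers. *C4b* measured 0.283 to 0.481 in WT and Tnfr1 KO livers, 1.11, 0.316 and 0.467 in Casp8 Mlkl dKO livers, and 2.33, 2.83 and 5.92 in Casp8 Tnfr1 dKO livers. *Serping1* measured 1.28 to 1.64 in the 8 other livers and 4.32, 4.19 and 4.98 in Casp8 Tnfr1 dKO livers.

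*Pros1* was not among the 11, with 0.621, 0.641 and 0.377 reads per 1000 reference reads in Casp8 Tnfr1 dKO livers against 0.162 to 0.487 in the others. *F2* had 8.13, 8.26 and 7.54 against 7.47 to 8.16 in WT and Tnfr1 KO livers, and *Plg* 14.0, 14.0 and 7.97 against 13.2 to 13.6. With libraries scaled to the reference reads, edgeR called *Fga*, *Fgb*, *Fgg* and *C4b* higher and *C6* lower against WT (3.45% of all genes higher, 0.104% lower). It called *C4b* higher and *C6* lower against Tnfr1 KO (2.07% and 0.0812% of all genes) and against Casp8 Mlkl dKO (2.93% and 0.104%). This scaling gave all genes a median log2 fold change of -0.01 against WT, 0.17 against Tnfr1 KO and 0.19 against Casp8 Mlkl dKO. The reference genes were not constant either: of the 20, *Fgl1* included, 19 passed the filter (all but *Tdo2*), and none was called against WT with all 11 livers (2 had an unadjusted p under 0.05), whereas 9, *Alb* among them, were lower and *Fgl1* higher with the 9 livers.

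**Figure D5:**
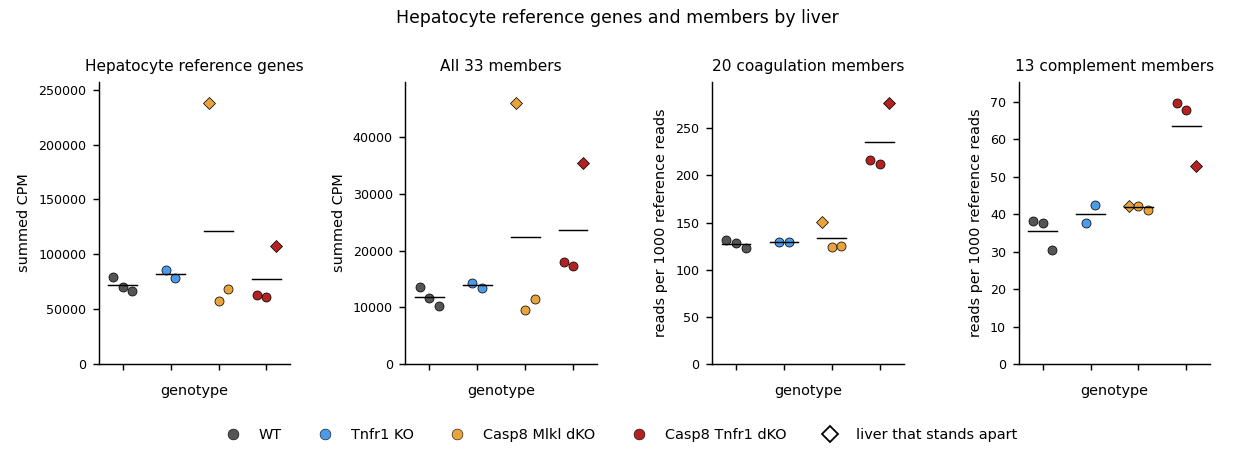
Summed CPM of the hepatocyte reference genes and of the 33 members (the panels at left) and summed reads of the 20 coagulation and 13 complement members per 1000 reads of the reference genes (the panels at right), with 1 point per liver and lines for group means. Casp8 Mlkl dKO replicate 1 (diamond) is the highest in both CPM panels and lies at 151 and 42.2 per 1000 reference reads, below the Casp8 Tnfr1 dKO livers.

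Between the control genotypes edgeR called no member with all 11 livers and several with the 9. With all 11 livers edgeR called no member in Tnfr1 KO against WT (0% of all genes higher, 0% lower; no member with an unadjusted p under 0.05) and none in Casp8 Mlkl dKO against WT (0.00580% of all genes higher, 0% lower; 1 member with an unadjusted p under 0.05), and neither did DESeq2 or limma-voom. All 33 members had a log2 fold change above 0 in Tnfr1 KO against WT, with a median of 0.27, and with libraries scaled to the reference reads 10 of these were below 0. With the 9 livers *F5* and *C8a* rose (0.44 ± 0.08 and 0.45 ± 0.07, edgeR adjusted p = 0.0389 and 0.0324), where 0.348% of all genes were higher and 0.330% lower. In Casp8 Mlkl dKO against WT the median was 0.64 with all livers and -0.16 with the 9. In the latter fit 7 members fell (*Klkb1*, *Serpinf2*, *Serpinc1*, *Vtn*, *Cfb*, *C8g* and *C9*) and none rose, against 3.18% and 3.23% of all genes. Of these, *Klkb1*, *Serpinf2*, *Serpinc1* and *C8g* were also lower in Casp8 Tnfr1 dKO livers against WT, and *Cfb* was higher.

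Other genes of the same pathways, many of them made by other cells, changed as well. Of 27 other coagulation and fibrinolysis genes 4 were called higher against WT and none lower with all livers, with a median log2 fold change of 0.73 (0.00 over all genes), and 14 higher and 1 lower with the 9 livers. *Plau*, the gene of urokinase, was higher in all 3 comparisons and measured 8.72, 8.30 and 6.98 CPM in WT and 18.1, 18.0 and 15.7 CPM in Casp8 Tnfr1 dKO livers (log2 fold change 1.11 ± 0.18, edgeR adjusted p = 0.00839). Of 34 other complement genes 29 were tested, and 5 were higher and 1 lower against WT, with a median of 0.29, and 15 higher and 4 lower with the 9 livers. The receptors of the fragments C3a and C5a rose in all 3 comparisons. *C3ar1* measured 3.11, 4.02 and 3.20 CPM in WT and 25.7, 28.3 and 25.5 CPM in Casp8 Tnfr1 dKO livers, and *C5ar1* 3.30, 3.60 and 2.25 CPM and 28.9, 33 and 28.3 CPM. *Fcna*, a ficolin of the lectin route, fell in all 3 and measured 54.3, 52.1 and 42.0 CPM and 13.8, 11.8 and 9.23 CPM in the same livers.

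Of 20 acute phase genes 17 were tested, and all 17 had a log2 fold change above 0 against WT, with a median of 1.82. With all livers 7 were called higher (*Saa3*, *Orm1*, *Lcn2*, *Serpina3n*, *Cp*, *Steap4* and *Socs3*) and none lower, and with the 9 livers 15 were higher. *Lcn2*, the gene of lipocalin-2, and *Steap4* rose in all 3 comparisons (4.87 ± 0.78 and 3.40 ± 0.49 against WT, edgeR adjusted p = 0.00687 and 0.00423). Of 23 liver transcription factors and signal transducers, 5 were higher against WT, *Cebpd* and *Stat3* among them, and none lower, with a median of 0.24, and 13 higher and 0 lower with the 9 livers. *Hnf4a* and *Cebpa*, which drive hepatocyte genes, were not called against WT with all or with the 9 livers. Against Tnfr1 KO, *Cebpa* and *Nr1i3* were lower with the 9 livers, and *Hnf4a* was called in neither fit.

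Markers of other cells moved with the genotype too. The 10 neutrophil markers summed to 1159 to 1680.0 CPM in WT, 1391 to 1424 in Tnfr1 KO, 1347 to 3489 in Casp8 Mlkl dKO and 5393 to 14974 in Casp8 Tnfr1 dKO livers, and 5 of 10 were called higher against WT with all livers (10 higher and 0 lower with the 9). The 15 macrophage markers summed to 634 to 864 CPM in WT, 783 to 835 in Tnfr1 KO, 793 to 1892 in Casp8 Mlkl dKO and 995 to 1149 in Casp8 Tnfr1 dKO livers, and 3 were higher and 2 lower (5 higher and 7 lower with the 9). Neutrophil markers were above the other genotypes in all 3 Casp8 Tnfr1 dKO livers. The 10 endothelial markers summed to 408 to 460.3 CPM in WT, 399 to 471 in Tnfr1 KO, 478 to 634 in Casp8 Mlkl dKO and 438 to 841 in Casp8 Tnfr1 dKO livers, and 2 were higher (3 higher and 1 lower with the 9). The 12 erythroid markers summed to 63552 to 73390.0 CPM in WT, 55306 to 63162 in Tnfr1 KO, 48145 to 54383 in Casp8 Mlkl dKO and 45693 to 176439 in Casp8 Tnfr1 dKO livers, and none was called (2 with an unadjusted p under 0.05), though all 12 were lower with the 9 livers. The 10 megakaryocyte markers summed to 258 to 447 CPM in WT, 427 to 489.6 in Tnfr1 KO, 343 to 459 in Casp8 Mlkl dKO and 199 to 487 in Casp8 Tnfr1 dKO livers, with none called and none at an unadjusted p under 0.05, and *Gp1ba* was higher with the 9 livers. The 10 stromal markers summed to 1167 to 1591 CPM in WT, 1252 to 1365 in Tnfr1 KO, 1182 to 1553 in Casp8 Mlkl dKO and 1370.1 to 5823 in Casp8 Tnfr1 dKO livers, and none was called with all livers (6 with an unadjusted p under 0.05). Of the stromal markers, 4 were higher against WT over the 9 livers (*Dcn*, *Pdgfra*, *Pdgfrb* and *Des*), 5 against Tnfr1 KO (these and *Lum*) and 3 against Casp8 Mlkl dKO, and none was lower. Every marker of these lists was detected. Macrophages and stromal cells are also known to make C1r, C3, C4, factor B and C1 inhibitor, and the part of such cells in the rise of these members was not tested.

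Reads of some members may be shared with other genes. Of the 50-base stretches of its transcripts, *C1ra* shared 50.8% with other genes, mainly *C1rb*, *C4b* 34.6% with *C4a*, and *Kng1* 17.2% with *Kng2*. *Cfb* shared 73% with Gm20547 and *Klkb1* 42.7% with Gm45753. *C1rb* had 9 reads over all livers and *C4a* 0.316 to 4.56 CPM. On the opposite strand, *Masp2* shared 52.5% with *Tardbp*, *Serpinc1* 33.6% mostly with *Zbtb37* and *Plg* 10.2% with *Slc22a3*. Whether strand was used in counting is not given in the sources used here, which bears on these 3. For the 5 whose shared stretches lie on the same strand, the study states that its own tests of expression used reads mapped to a single place, and whether the deposited counts were made from those reads is not given. The values of these 8 members are uncertain to that extent.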

How the data were processed

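RNA of 11 liver samples was sequenced as single-end reads. Per the labels and the study's methods, the authors aligned reads to GRCm38/mm10 with GSNAP (2013-11-10) and deposited, for each liver, the raw count of reads on the exons of each gene, its exonic length and an RPKM value, which the authors scaled by that length and by library size and which served here only as a check of the counts. The labels name a TruSeq RNA v2 kit, whereas the study's methods name a stranded kit. The counting tool and the use of strand are not given in the sources used here.

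Counts were normalized by TMM and tested with edgeR 4.0.16 (R 4.3.3; quasi-likelihood F-test, all 4 genotypes in 1 fit, filterByExpr with a minimum count of 10, Benjamini-Hochberg adjustment over 17243 genes). Log2 levels used a prior count of 2. Positions are from GENCODE M21 (GRCm38). Alternatives used DESeq2 1.42.0, limma 3.58.1, other scalings and filters, and sets of livers, and the edgeR script was tested on simulated data. Exact permutation tests over livers were two-sided.

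Members and lists (other coagulation and complement genes, vitamin K cycle, acute phase, transcription factors, hepatocyte reference genes and cell markers) were chosen with earlier results of these data known. All members are named. Values in every liver are given for members called in a comparison with Casp8 Tnfr1 dKO livers with all 11 livers, for the 3 most abundant of each class per length and for some others. For the rest the WT and Tnfr1 KO livers are given as a range. Of the other lists, genes called in all 3 comparisons, or else the 2 with the smallest p, are named, and some genes and motifs of these lists are not reported here. No 2 libraries agreed within counting noise.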

Additional observations from a re-analysis of the deposited data

How the results depend on the processing

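The members called depended most on Casp8 Mlkl dKO replicate 1. Without it and Casp8 Tnfr1 dKO replicate 3, members called in Casp8 Tnfr1 dKO livers were 13 higher and 7 lower against WT, 10 higher and 13 lower against Tnfr1 KO and 15 higher and 1 lower against Casp8 Mlkl dKO, and with quality weights in limma-voom they were 12 higher and 4 lower (17.0% and 13.6% of all genes), 9 higher and 12 lower (14.6% and 10.5%) and 12 higher and 1 lower (11% and 4.73%). Leaving out each liver in turn gave 0 to 11 higher and 0 to 1 lower against WT, 0 to 4 and 0 to 3 against Tnfr1 KO, and 0 to 4 and 0 to 1 against Casp8 Mlkl dKO. Without Casp8 Mlkl dKO replicate 1, 11 higher and 1 lower (7.29% and 2.15% of all genes), 4 higher and 3 lower (3.62% and 0.755%) and 4 higher and 1 lower (3.03% and 0.269%) were called, whereas without Casp8 Tnfr1 dKO replicate 3 alone 1 higher and 0 lower were called against WT (*Pros1*; 7.28% and 2.55% of all genes) and none against the other genotypes. Scaled to the summed reference reads they were 4 higher and 1 lower, 1 higher and 1 lower and 1 higher and 1 lower, and scaled to the geometric mean of the reference genes, an alternative chosen after seeing the data, 6 higher and 1 lower (5.36% and 0.104% of all genes), 3 higher and 1 lower (3.38% and 0.0870%) and 3 higher and 1 lower (4.03% and 0.128%). The geometric mean moved the median of all genes to 0.17, 0.31 and 0.23. Against WT, DESeq2 called 4 higher and 1 lower, limma-voom 2 higher and 0 lower, the fit without a count filter 3 higher and 0 lower (3.58% and 0.221% of all genes) and the fit of only the genotypes compared 3 higher and 0 lower (2.80% and 0.218%). Against Tnfr1 KO DESeq2 called 1 higher and 1 lower, and *C6* was not called against Casp8 Mlkl dKO by limma-voom, with DESeq2's size factors in edgeR or with only those genotypes (0 lower in each). In Tnfr1 KO against WT, 2 members were higher with quality weights (0.870% of all genes) and 2 without both livers (0.348%). With only these genotypes 3 were higher (0.850%). In Casp8 Mlkl dKO against WT, 2 were lower with quality weights (2.85% of all genes) and 7 without both livers (3.18%).

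Calls of the opposite sign to the value with all 11 livers arose without both livers or with quality weights, and the cause was not tested. Against Casp8 Mlkl dKO, without both livers, log2 fold changes were 0.92 for *F9*, 0.51 for *F10*, 0.39 for *F11*, 0.72 for *C3* and 0.35 for *Cfi*, and with quality weights 0.81 for *F9* and 0.61 for *C3*. In Casp8 Mlkl dKO against WT, without both livers, they were -0.40 for *Klkb1*, -0.28 for *Serpinf2*, -0.33 for *Serpinc1*, -0.44 for *Vtn*, -0.45 for *Cfb* and -0.62 for *C8g*, which had -0.57 with quality weights. The class difference between Casp8 Tnfr1 dKO and WT livers was -0.64 without *Vtn*, *Serping1*, *C4b*, *C1ra* and *Kng1*. This value follows in part from the choice, as *C4b*, *C1ra* and *Serping1* are complement members that rose without both livers. Members above the other livers without overlap numbered 11 on the summed reference scale, 12 on the geometric mean scale (11.3% of all genes), 13 without both livers (17.9%) and 12 against WT and Tnfr1 KO alone, and those below 2 on the geometric mean scale (0.371%) and 8 against WT and Tnfr1 KO alone. With each liver left out, 1 to 12 lay above (7.54% to 13.3% of all genes) and 1 to 4 below (3.49% to 9.04%), the 12 without Casp8 Mlkl dKO replicate 1 (13.3%). Of 3795 fold changes of single members under the alternatives, 3360 kept their direction and side of the threshold, and 231 changed sign without a call with either setting. A call was gained in the same direction in 168 and lost in 22. As only *Pros1* and *C6* were called with all 11 livers, each in 1 comparison, most of the 3360 stayed uncalled. Their number therefore says little about how stable the calls are.

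Replicate numbers did not pair the livers: deviations of same-numbered livers correlated at -0.297 to 0.275. With the number as a replicate block, 1 higher and 1 lower were called against WT (*C1ra* and *C6*), where 3.09% and 0.232% of all genes were. *Pros1* was not called with that block, without a count filter or on either reference scale. Over all alternatives, genes called against WT numbered 270 to 3017 higher and 11 to 2345 lower (879 and 121 in the fit of all livers), against Tnfr1 KO 29 to 2511 higher and 1 to 1814 lower (353 and 21 in the fit of all livers) and against Casp8 Mlkl dKO 10 to 2032 higher and 1 to 1035 lower (265 and 20 in the fit of all livers). Tnfr1 KO has only 2 livers. At 1 to 17 reads in Casp8 Tnfr1 dKO livers, depth limits the size of the fall of *C6*.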
